A study of Mus musculus with 6 samples.

Results

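The genes described here are those of the Rhox, Mage, Fthl17, Nxf, Pnma, Ssx and Slxl1 families, multigene families best known from testis and placenta, in mouse E14 embryonic stem cells. They were taken from the gene table by symbol, with Rhox genes by number, Mage limited to types a, b, d, e, h, k and l, and Nxf limited to Nxf2, Nxf3 and Nxf7. The rule found 37 of the 19571 genes in the table. The GENCODE mouse annotation of mm10 holds 102 such symbols, and the other 65 were not analysed here. RNA from 3 samples of Dot1l knock-out (KO) cells, labelled Dot1L-/- and made with CRISPR/Cas9, was compared with RNA from 3 samples of wild-type (WT) cells. E14 cells are male and need no feeder layer, and both genotypes were kept in serum with LIF. The labels do not say whether the KO samples come from a single clone, nor what their label of day 14 is counted from.

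Dot1l encodes the enzyme that methylates lysine 79 of histone H3. Rhox genes encode homeobox transcription factors of reproductive tissues and lie in a single cluster on the X chromosome. In the mouse embryo proper most of that cluster is silenced with DNA methylation, while the placenta and the germ line use parts of it. MAGE proteins share a domain through which they bind ubiquitin ligases. The Magea and Mageb genes are mostly limited to male germ cells and tumours, whereas the Maged, Magee, Mageh and Magel genes are used in many somatic tissues. Fthl17 genes encode relatives of the ferritin heavy chain, Nxf genes relatives of the general mRNA export receptor Nxf1, and Pnma genes proteins derived from the Gag protein of an ancient retrotransposon.

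The gene table gives a mean normalized count per gene across the 6 libraries, a log2 fold change, its standard error (SE) and a DESeq2 p-value. It holds no value per sample, so the spread of single libraries and their depth are unknown. Levels of each genotype, in normalized counts, were worked out from the mean and the fold change and carry no error of their own. A gene was called when its adjusted p was under 0.05. Which genotype a positive value favours is not stated in the table. Positive was taken to mean more RNA in Dot1l KO, since in published work MERVL, an endogenous retrovirus, was repressed by Dot1l in such cells, and every direction below would turn round with the other reading. Dot1l RNA does not settle it, with a log2 fold change of -0.16 ± 0.25 (SE) and adjusted p = 0.845 by the authors' deposited table.

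Of the 37 genes, 19 were called higher and 1 lower, or 51.4% and 2.70%, where 5.34% of all genes tested were higher and 1.25% lower. Their log2 fold changes had a median of 2.33, also with genes lacking WT reads placed at a lower bound, against -0.02 over all genes. All 5 Fthl17 genes analysed, all 3 Nxf genes, 6 of 12 Rhox genes, 3 of 10 Mage genes and 2 of 6 Pnma genes were higher. The 19 genes that rose all lie on the X chromosome. Of the 31 X-linked members 19 were higher, or 61.3%, and of the 6 autosomal members 0 were higher and 0 lower by DESeq2, with 0 higher and 1 lower at an unadjusted p under 0.05, where 4.97% of autosomal genes were higher and 1.23% lower. Among the 658 X-linked genes outside these families 82 were higher and 11 lower, or 12.5% and 1.67%.

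**Figure D1:**
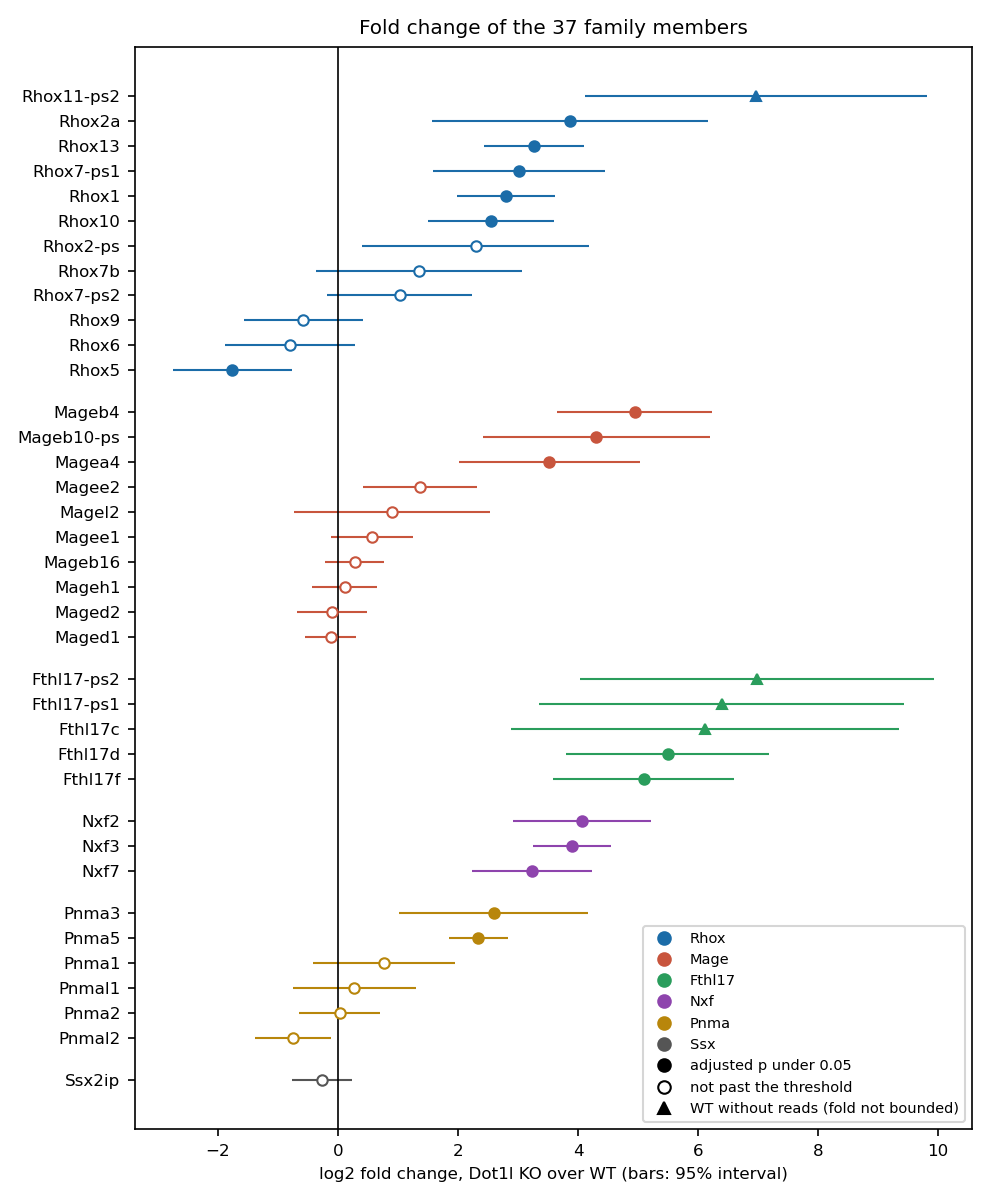
Log2 fold change, Dot1l KO over WT, of the 37 genes by family, with bars for the 95% interval from the standard error. Filled symbols passed the threshold of 0.05, and triangles mark the 4 genes without reads in WT cells, whose fitted fold is no bound. The Fthl17 and Nxf genes all lie right of 0, while Rhox5 lies left of it.

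**Figure D2:**
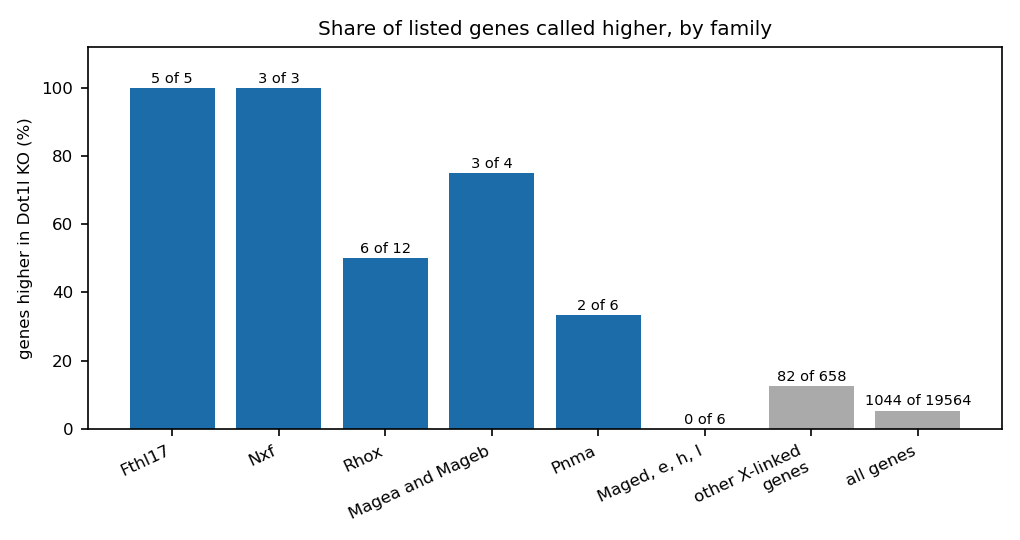
Share of the genes analysed in each family that were called higher in Dot1l KO, in percent, with the counts above the bars. Grey bars give the 82 of 658 other X-linked genes and the 1044 of 19564 genes tested. All 5 Fthl17 genes, and the 3 Magea and Mageb genes called higher, could be listed only through their level in Dot1l KO. The same holds for Rhox2a, Rhox11-ps2 and Rhox7-ps1, so the shares of these families follow in part from that.

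Most of the genes that rose were nearly silent in WT cells. In 11 of the 37 genes the WT level was under 4.79, the lowest mean in the table, so these genes could enter the table only through their level in Dot1l KO, and their calls as higher follow in part from that. Of the 14 genes with a WT level from there to 100, 7 were higher and 0 lower by DESeq2, and at an unadjusted p under 0.05 there were 9 higher and 0 lower. Of the 12 with a WT level of at least 100, only Pnma5 was higher and only Rhox5 lower. In the table as a whole a larger share of weakly expressed genes was called higher. At a mean under 100, 15 of 23 members (65.2%) were higher, against 8.99% of all such genes (0.26% were lower) and 19.6% of such X-linked genes outside the families. The 15 include all 11 genes that could enter the table only through their level in Dot1l KO, so their share follows in part from that. At a mean of at least 100, 4 of 14 members were higher and 1 lower, against 2.97% and 1.89% of all such genes.

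**Figure D3:**
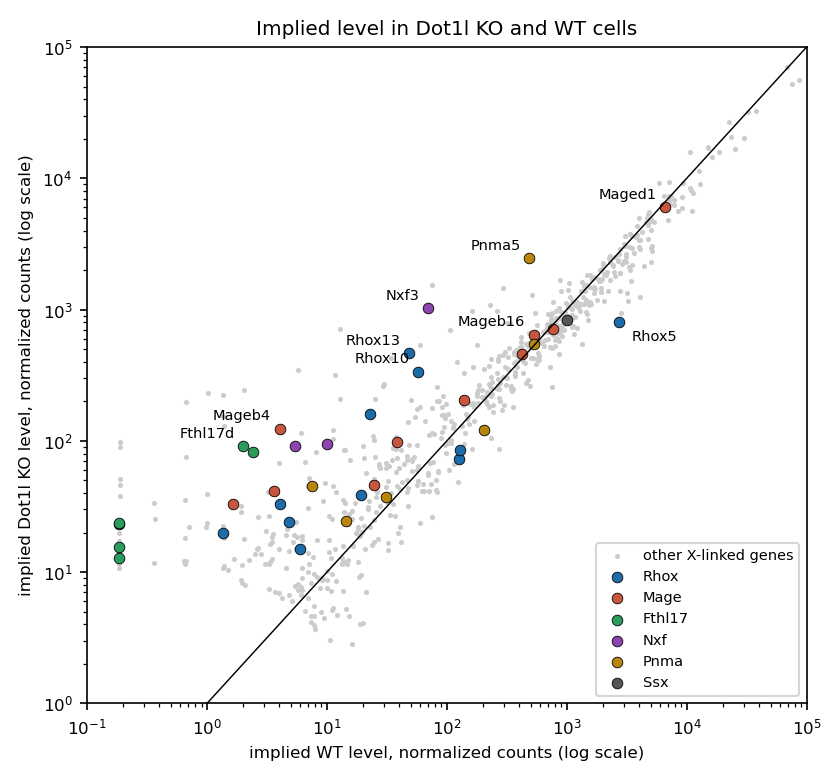
Level in Dot1l KO cells (vertical) against level in WT cells (horizontal), both in normalized counts on log scales, for the 37 genes in colour and 658 other X-linked genes in grey. Genes above the diagonal are higher in Dot1l KO. Rhox13, Nxf3 and Pnma5 stand above it at considerable levels, and Maged1 and Mageb16 stand on or near it.

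Near-identical copies limit how far single members can be told apart. A transcript at least 90% identical to that of another gene over at least 80% of its length was found for 11 of the 37 genes, 8 of them called higher: all 5 Fthl17 genes, Mageb10-ps and the Rhox genes Rhox2a, Rhox6, Rhox7b, Rhox7-ps1 and Rhox7-ps2. Of the 20 members with less than 5% of their 50-base stretches found in another gene, 8 were higher and 1 lower, and of the other 17 members 11 were higher. Rhox1, Rhox5, Rhox10, Rhox13, Nxf2 and Nxf3 share no such stretch with any annotated transcript.

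Of the 12 Rhox genes 6 were higher, 1 was lower and 5 were not called. Those higher were Rhox1 and Rhox2a at one end of the cluster and Rhox11-ps2, Rhox10, Rhox13 and Rhox7-ps1 towards the other, and the one lower was Rhox5 between them. Of these 6, Rhox2a, Rhox11-ps2 and Rhox7-ps1 had WT levels under the lowest mean in the table. No test of position was run. Rhox13 (chromosome X, 38121219 to 38129967 in mm10), a factor of male and female germ cells, stood at 466.4 normalized counts in Dot1l KO cells and 48.4 in WT cells. Between the genotypes the difference was 3.27 ± 0.42 (log2, SE) with adjusted p = 5.88e-12 by the authors' deposited table. Rhox10 (38066475 to 38071691), which acts in the formation of spermatogonial stem cells, had 336.3 normalized counts in Dot1l KO cells and 57.4 in WT cells. The log2 fold change of Rhox10 by the authors' deposited table was 2.55 ± 0.54 with adjusted p = 0.00013. Both lie in the stretch known as the gamma subcluster, with Rhox11-ps2, a pseudogene (37940816 to 37945602) without reads in WT cells and at 23.3 in Dot1l KO cells. For Rhox11-ps2 the level was at least 23.3-fold higher if 3 reads in all are allowed for the WT group, and its adjusted p by the authors' deposited table was 0.00011.

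At the other end, Rhox1 (37213804 to 37222258) stood at 159.4 normalized counts in Dot1l KO cells and 22.8 in WT cells, with a log2 fold change of 2.81 ± 0.42 and adjusted p = 3.92e-09 by the authors' deposited table. Rhox2a (37244976 to 37249686) had 19.9 normalized counts in Dot1l KO cells and 1.37 in WT cells. Its log2 fold change of 3.86 ± 1.17 by the authors' deposited table passed with adjusted p = 0.0207. The call of Rhox2a was lost at a threshold of 0.01, where fold changes were centred within bins of mean count (adjusted p = 0.0666) and with Bonferroni adjustment. Of its 50-base stretches 91.1% are found in other genes. Rhox2a is the single coding gene analysed from the tandem array of Rhox2, Rhox3 and Rhox4 copies, of which 24 annotated members were not analysed here. The pseudogene Rhox2-ps, with 2.30 ± 0.96 and adjusted p = 0.160 by the authors' deposited table, did not pass.

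Rhox5 (37804842 to 37808876), the founding gene of the family, also called Pem and used by stem cells, Sertoli cells and placenta, was the member that fell. It stood at 801.4 normalized counts in Dot1l KO cells and 2716 in WT cells, a log2 fold change of -1.76 ± 0.50 with adjusted p = 0.0118 by the authors' deposited table. Its 95% interval ran from -2.75 to -0.77, and the call was lost at a threshold of 0.01 and with Bonferroni adjustment. Per kilobase of exon Rhox5 had the highest WT level of the 37 genes, 3603 normalized counts, and was second to Maged1 in Dot1l KO cells with 1063 per kilobase. Rhox6 (37826910 to 37829857) and Rhox9 (37899097 to 37901770), both placental and germ cell factors and its neighbours in the beta subcluster, did not pass. For Rhox6 the authors' deposited table gives -0.80 ± 0.55 with adjusted p = 0.526, and for Rhox9 it gives -0.58 ± 0.51 with adjusted p = 0.657. Their levels were 72.2 and 85.5 normalized counts in Dot1l KO cells and 125.6 and 128.0 in WT cells.

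The Rhox7 copies complete the cluster. Rhox7-ps1, a pseudogene (38296868 to 38306028) far from the other Rhox7 copies, had 32.9 normalized counts in Dot1l KO cells and 4.07 in WT cells, with 3.02 ± 0.73 and adjusted p = 0.00149 by the authors' deposited table. Rhox7b at 1.35 ± 0.88 and Rhox7-ps2 at 1.03 ± 0.61 did not pass, with adjusted p of 0.483 and 0.429 by the authors' deposited table. In the window from 500 kb before to 500 kb after the 1092 kb that the 12 genes span, 21 other genes were tested, of which 1 was higher and 0 lower. The one was Gm9, a predicted gene beside Rhox1. At 1.37 normalized counts in WT cells, Gm9 could be listed only through its level in Dot1l KO. Over all genes tested 5.34% were higher and 1.25% lower, and over X-linked genes outside the families 12.5% and 1.67%. The count in the window is near the shares of all genes. The other 20 lay between -1.12 and 1.95 on the log2 scale by the authors' deposited table, among them the ribosomal protein gene Rpl39 and the lysosomal membrane gene Lamp2.

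**Figure D4:**
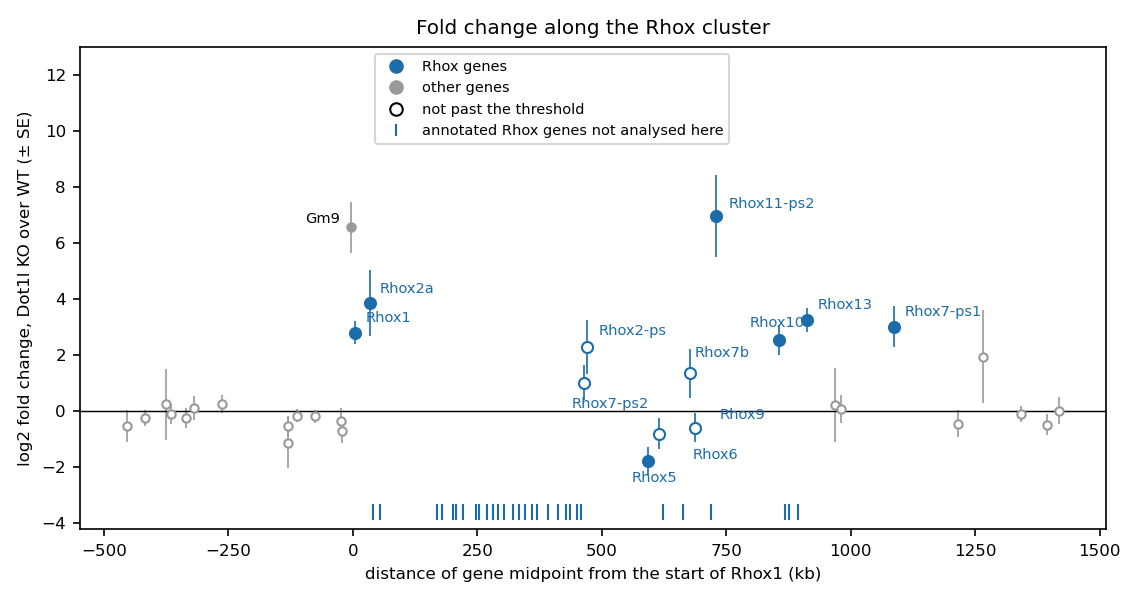
Log2 fold change (± SE), Dot1l KO over WT, by distance of each gene's midpoint from the start of Rhox1, in kb. Blue points are Rhox genes, grey points the 21 other genes within 500 kb, and ticks at the bottom the 30 annotated Rhox genes not analysed here. Rhox5 lies below 0 and passed, Rhox6 and Rhox9 lie below 0 and did not pass, and Rhox7b, between Rhox6 and Rhox9, lies above 0 and did not pass.

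The 5 Fthl17 genes had a median log2 fold change of 6.12, or 4.55 with the genes lacking WT reads at their bound. All 5 had WT levels under the lowest mean in the table, so they could be listed only through their level in Dot1l KO, and these medians cannot be set against those of families expressed in WT cells. The other 4 annotated copies were not analysed here. Fthl17d (8985900 to 8986755 on chromosome X) stood at 90.9 normalized counts in Dot1l KO cells and 2.01 in WT cells, and Fthl17f (9063015 to 9063861) at 82.9 in Dot1l KO cells and 2.43 in WT cells. In the authors' deposited table their log2 fold changes were 5.50 ± 0.86 with adjusted p = 3.98e-08 and 5.09 ± 0.77 with adjusted p = 7.68e-09. The other 3, Fthl17c and the pseudogenes Fthl17-ps1 and Fthl17-ps2, had no reads in WT cells and 12.9, 15.6 and 23.5 normalized counts in Dot1l KO cells. They were at least 12.9-, 15.6- and 23.5-fold higher if 3 reads in all are allowed for the WT group, with adjusted p of 0.00614, 0.00149 and 0.000216 by the authors' deposited table. These bounds leave out the error of the Dot1l KO level.

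These 5 values are not independent, because the genes are near-identical copies and the handling of reads with several matching places is not stated. Of all 50-base stretches in the transcripts of each Fthl17 gene, between 40.9% and 91.9% were found exactly in a transcript of another gene. Fthl17c and Fthl17d differ at 11 of 528 coding bases, Fthl17c and Fthl17f at 19, and Fthl17d and Fthl17f at 22. Closer still are copies not analysed here. Fthl17c is 99.3% identical to Fthl17b over 99% of its length, and Fthl17d 99.6% identical to Fthl17e over 98%. The first 120 coding bases of Fthl17c, Fthl17d and Fthl17f hold 13 positions that differ among the 3, shown in capitals (GENCODE, GRCm38, chrX:8976294-8976413 and chrX:8986476-8986595 on the minus strand and chrX:9063167-9063286 on the plus strand):
Fthl17c: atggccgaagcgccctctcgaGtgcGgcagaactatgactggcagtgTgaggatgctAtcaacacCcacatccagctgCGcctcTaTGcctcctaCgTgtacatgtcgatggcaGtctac
Fthl17d: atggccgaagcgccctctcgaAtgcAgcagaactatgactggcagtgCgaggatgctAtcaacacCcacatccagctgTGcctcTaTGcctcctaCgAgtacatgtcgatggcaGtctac
Fthl17f: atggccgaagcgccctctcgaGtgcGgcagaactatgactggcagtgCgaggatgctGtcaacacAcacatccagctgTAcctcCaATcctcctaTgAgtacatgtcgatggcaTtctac

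The copies also share the sequence before their GENCODE start, which for Fthl17d and Fthl17f lies upstream of the RefSeq start. The 100 bases upstream of the GENCODE start each hold one TATAA, shown in capitals (bases from RefSeq, GRCm38.p6, chrX:8976560-8976659 and chrX:8986756-8986855 on the minus strand and chrX:9062915-9063014 on the plus strand), and over 85 bases lined up at it the 3 differ from each other at 1 to 3 positions:
Fthl17c: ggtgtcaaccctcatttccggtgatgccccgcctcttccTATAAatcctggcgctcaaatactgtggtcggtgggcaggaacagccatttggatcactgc
Fthl17d: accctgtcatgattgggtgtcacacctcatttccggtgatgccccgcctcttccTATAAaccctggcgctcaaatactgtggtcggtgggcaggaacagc
Fthl17f: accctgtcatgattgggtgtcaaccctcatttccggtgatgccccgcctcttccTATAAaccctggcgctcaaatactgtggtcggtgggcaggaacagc
Of all 32851 promoter windows of 250 bases, 22.8% hold TATAA on one strand or the other. The ferritins proper were not called. Of Fth1 and Ftl1, the ubiquitous heavy and light chains of the iron store, 0 were called, with 0 higher and 2 lower at an unadjusted p under 0.05. Ftl1 had -1.09 ± 0.39 with adjusted p = 0.0680, and Fth1 -0.86 ± 0.44 with adjusted p = 0.298, by the authors' deposited table.

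All 3 Nxf genes rose, and they are nearly free of copies, with at most 2.44% of their 50-base stretches shared. Nxf3 (chromosome X, 136072099 to 136085255) had the smallest p of the 37 genes. Its level was 1027 normalized counts in Dot1l KO cells and 69.0 in WT cells, a log2 fold change of 3.90 ± 0.33 with adjusted p = 2.74e-28 by the authors' deposited table. Nxf2 (134944526 to 134964754), an export factor of male germ cells, had 91.3 normalized counts in Dot1l KO cells and 5.44 in WT cells, with 4.07 ± 0.59 and adjusted p = 1.01e-09 by the authors' deposited table. Nxf7 (135579555 to 135598777) stood at 94.4 normalized counts in Dot1l KO cells and 10.1 in WT cells, with 3.23 ± 0.51 and adjusted p = 5.40e-08 by the authors' deposited table. The intervals of the 3 fold changes overlap, and the differences between them were not tested.

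Of 3 related genes of RNA export 1 was higher and 0 lower. Among all genes tested 5.34% were higher, and 12.5% of X-linked genes outside the families. Nxt2, an X-linked cofactor that binds Nxf proteins, rose by 1.90 ± 0.45 on the log2 scale with adjusted p = 0.000933 by the authors' deposited table, at 970.7 normalized counts in Dot1l KO cells and 260.6 in WT cells. The autosomal cofactor Nxt1, at -0.48 ± 0.37 with adjusted p = 0.595, and the general receptor Nxf1, at -0.38 ± 0.31 with adjusted p = 0.627 by the authors' deposited table, did not pass.

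Nxf2 has an unusual sequence before its start, which drew attention only after its values were known. The hexamer CACGTG, an E-box bound by dimers of Max with Mga and by other factors, occurs 5 times there, reads the same on both strands and is shown in capitals in the 200 bases upstream (RefSeq, GRCm38.p6, chrX:134964755-134964954, minus strand):
Nxf2: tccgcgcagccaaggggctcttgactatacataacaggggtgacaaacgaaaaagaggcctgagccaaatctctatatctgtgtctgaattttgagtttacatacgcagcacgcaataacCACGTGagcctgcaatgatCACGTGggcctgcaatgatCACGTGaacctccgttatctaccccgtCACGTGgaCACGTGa
Of all 32851 windows of 250 bases, 6.02% hold the hexamer at all and 5 windows, or 0.0152%, hold at least as many copies. None of the other 25 members with a window holds it. It was 1 of 3 motifs searched, with TATAA and the E2f6 core TCCCGC. That core was found on either strand in 1 of 15 windows of genes that rose, Rhox11-ps2, in 4 of 10 of genes that were not called, and in 16.9% of all windows.

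In the Pnma family the 2 X-linked members rose and the 4 autosomal members were not called. Among all autosomal genes 4.97% were higher and 1.23% lower, so the lack of calls among the 4 is near those shares. A difference between the chromosomes was not tested. Pnma5 (chromosome X, 73033981 to 73037103) stood at 2457 normalized counts in Dot1l KO cells and 487.5 in WT cells, the largest gain in counts of the 37 genes. Its log2 fold change was 2.33 ± 0.25 with adjusted p = 1.88e-17 by the authors' deposited table. Pnma3 (73064787 to 73068191), beside it, had 45.3 normalized counts in Dot1l KO cells and 7.52 in WT cells, with 2.59 ± 0.81 and adjusted p = 0.0252 by the authors' deposited table. The call of Pnma3 was lost at a threshold of 0.01, where fold changes were centred within bins of mean count (adjusted p = 0.103) and with Bonferroni adjustment. The pair shares sequence, since 23.8% of the 50-base stretches of Pnma3 occur in Pnma5, and how such reads were counted is not stated.

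Among the autosomal members, Pnmal2 on chromosome 7 had -0.75 ± 0.32 with adjusted p = 0.183 and Pnma1 on chromosome 12 had 0.77 ± 0.61 with adjusted p = 0.605 by the authors' deposited table. Pnma2 on chromosome 14, the most abundant of the 4, had 546.5 normalized counts in Dot1l KO cells and 536.5 in WT cells, with adjusted p = 0.986 by the authors' deposited table. Pnmal1 on chromosome 7 had 37.4 normalized counts in Dot1l KO cells and 31.0 in WT cells and was not called. Part of the exons of Pnma1 overlaps Dnal1 on the opposite strand, and how the counting used strand is not stated. Of 6 other genes of Gag origin, 1 rose and 1 fell, with 1 higher and 3 lower at an unadjusted p under 0.05. By comparison, 5.34% of all genes tested were called higher and 1.25% lower. Zcchc12 on the X chromosome was at 1.25 ± 0.39 with adjusted p = 0.0255, and the imprinted placental gene Rtl1 at -2.29 ± 0.48 with adjusted p = 0.000148, by the authors' deposited table.

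The promoter of Pnma5 holds no CpG at all in the 200 bases before its start, whereas that of Nxf2 above holds 12 (RefSeq, GRCm38.p6, chrX:73037104-73037303, minus strand, in lower case since nothing is marked):
Pnma5: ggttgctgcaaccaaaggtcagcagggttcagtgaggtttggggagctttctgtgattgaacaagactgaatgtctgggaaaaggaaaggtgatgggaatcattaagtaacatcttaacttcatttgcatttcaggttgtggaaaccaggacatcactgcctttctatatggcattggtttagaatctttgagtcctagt
CpG is the dinucleotide that DNA methylation uses. Over the 250 bases before the start, the 15 genes that rose and have a window held from 0 to 16 CpG with a median of 6, the 10 not called held from 5 to 27 with a median of 10.5, and all windows had a median of 6. A window was at hand for 26 of the 37 genes. The RefSeq start lies far upstream of the GENCODE start for Rhox5 and far inside the gene for Mageb4, and it also differs, by less, for others such as Rhox13.

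**Figure D5:**
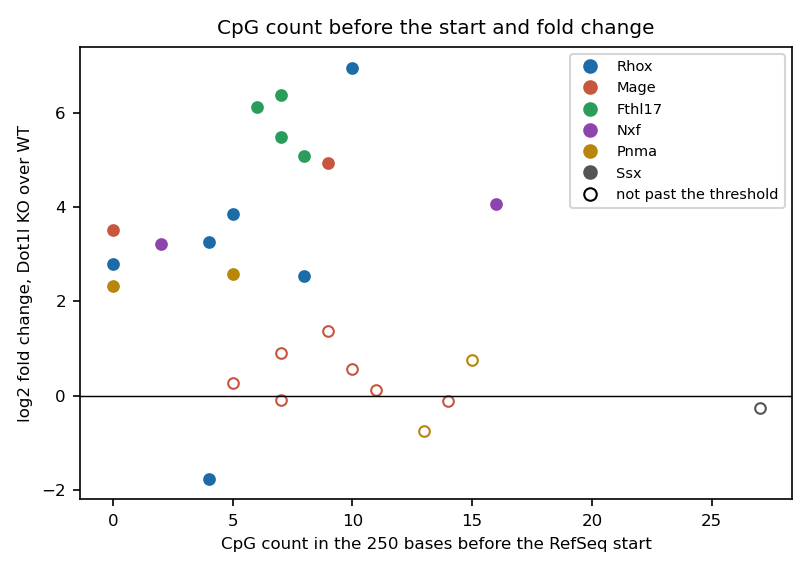
Log2 fold change, Dot1l KO over WT, against the number of CpG in the 250 bases before the RefSeq start, for the 26 genes with a window. Filled points passed the threshold of 0.05. Genes that rose are found from 0 to 16 CpG.

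Of 4 Magea and Mageb genes analysed 3 rose. Of the 6 Maged, Magee, Mageh and Magel genes 0 were higher and 0 lower by DESeq2. At an unadjusted p under 0.05 there were 1 higher and 0 lower among the 6. The lack of calls among the 6 is near the shares of all genes tested, of which 5.34% were higher and 1.25% lower. Mageb4 (chromosome X, 86250254 to 86305093), expressed in male germ cells, stood at 123.9 normalized counts in Dot1l KO cells and 4.03 in WT cells, with a log2 fold change of 4.94 ± 0.66 and adjusted p = 2.44e-11 by the authors' deposited table. Mageb10-ps (86299922 to 86301328) lies inside the annotated span of Mageb4 on the same strand, and 82.7% of its 50-base stretches occur in Mageb4. In turn 50.1% of the stretches of Mageb4 occur in Mageb10-ps, so neither value is independent of the other. Mageb10-ps had 32.8 normalized counts in Dot1l KO cells and 1.66 in WT cells, and 4.30 ± 0.96 with adjusted p = 0.000412 by the authors' deposited table. Magea4 (72222017 to 72222964), a tumour antigen in human, had 41.7 normalized counts in Dot1l KO cells and 3.64 in WT cells. Its log2 fold change was 3.52 ± 0.77 with adjusted p = 0.000269 by the authors' deposited table, and 2.34% of its stretches are shared. All 3 had WT levels under the lowest mean in the table, so they could be listed only through their level in Dot1l KO, and 20 annotated Magea and Mageb genes were not analysed here. The difference in counts between the Mage types follows in part from that and was not tested.

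Mageb16 (79623231 to 79671435), the fourth of this type, was already abundant, at 642.5 normalized counts in Dot1l KO cells and 530.0 in WT cells. Its log2 fold change of 0.28 ± 0.25 did not pass, with adjusted p = 0.666 by the authors' deposited table and a 95% interval from -0.21 to 0.77. Per kilobase of exon its level was 330.1 in Dot1l KO cells and 272.4 in WT cells. Of its stretches 55.1% are shared with a processed pseudogene, Mageb16-ps2.

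Maged1 (94535474 to 94542143), an adaptor in receptor signalling and cell death, was the most abundant member, with 6028 normalized counts in Dot1l KO cells and 6563 in WT cells. In the authors' deposited table Maged1 had a log2 fold change of -0.12 ± 0.22 with adjusted p = 0.866. Maged2, which regulates salt transport in the kidney, had -0.10 ± 0.30 with adjusted p = 0.927, and Mageh1 0.11 ± 0.28 with adjusted p = 0.916, by the authors' deposited table. The signs of Maged1 and Maged2 turned positive where fold changes were centred within bins of mean count. Magee2 was nearest to the threshold, at 98.7 normalized counts in Dot1l KO cells and 38.2 in WT cells, with 1.37 ± 0.49 and adjusted p = 0.0679 by the authors' deposited table. For Magee1 the authors' deposited table gives 0.57 ± 0.35 with adjusted p = 0.454. Magel2, an imprinted gene on chromosome 7 that acts in endosomal transport in the hypothalamus, had 0.90 ± 0.83 with adjusted p = 0.682 by the authors' deposited table.

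Genes of the proteins that MAGE proteins work with were not called. Since 5.34% of all genes tested were higher and 1.25% lower, this lack of calls is near those shares. Of 13 tested partners, ubiquitin ligases such as Trim28 and Trim27, subunits of the Smc5 and Smc6 complex and the deubiquitinase Usp7, 0 were higher and 0 lower by DESeq2, also at an unadjusted p under 0.05. The smallest p-values belonged to Nsmce2, with -0.59 ± 0.30 and adjusted p = 0.310, and Stub1, with -0.47 ± 0.30 and adjusted p = 0.484, by the authors' deposited table. Of 3 MAGE genes outside the rule, Magef1, Ndn and Nsmce3, 0 were higher or lower by DESeq2, also at an unadjusted p under 0.05. That too is near the shares of all genes, and Nsmce3 is also counted among the 13 partners. In the authors' deposited table adjusted p was 0.853 for Nsmce3 and 0.882 for Magef1.

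The Ssx pattern matched only Ssx2ip among the genes analysed, a centrosomal protein named for binding a human SSX protein and not itself an Ssx gene. It was abundant and did not pass, at -0.27 ± 0.25 with adjusted p = 0.690 by the authors' deposited table. The 10 Ssx genes proper and Slxl1, a spermatid gene, were not analysed here.

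Some other X-linked genes of testis were also higher. Of 19 tested genes 7 rose, or 36.8%, and 1 fell, with a median log2 fold change of 0.78. The list held 38 genes, and the others were not analysed here. For comparison, 12.5% of X-linked genes outside the families were higher and 1.67% lower, and 19.6% were higher of those with a mean under 100. Tktl1, a transketolase relative, rose by 4.25 ± 0.55 with adjusted p = 4.88e-12, and Taf7l, a germ cell form of a general transcription factor subunit, by 3.16 ± 0.44 with adjusted p = 1.68e-10, by the authors' deposited table. Tex11, needed for meiotic recombination, was at 2.60 ± 0.39, Zfp711 at 2.20 ± 0.47 and Tex16 at 3.04 ± 0.90 by the authors' deposited table, and all passed. Pramel3 and Cypt3, which also passed, had no reads in WT cells. Tex16, at 3.28 normalized counts in WT cells, Pramel3 and Cypt3 could be listed only through their level in Dot1l KO. The share of 36.8% follows in part from that. The gene that fell was Nr0b1, an orphan receptor of stem cells and gonads, at -1.13 ± 0.38 with adjusted p = 0.0455 by the authors' deposited table.

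Factors that keep germline genes silent in stem cells, listed together with the enzymes Tet1, Tet2 and Tet3, were mostly not called. Of these 21 genes 2 rose and 0 fell, with a median log2 fold change of -0.03. The 2 make 9.52%, against 5.34% among all genes tested. One was the DNA methyltransferase Dnmt3a, at 0.85 ± 0.24 with adjusted p = 0.00822 by the authors' deposited table. The other was Tet3, which oxidizes methylated cytosine and is not a silencing factor. It was at 1.18 ± 0.34 with adjusted p = 0.0139 by the authors' deposited table. Apart from the Tet enzymes, only Dnmt3a was called. Dnmt1, Uhrf1, Setdb1, E2f6, Mga and Max were not called.

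All 8 embryonic stem cell markers, Pou5f1, Sox2 and Nanog among them, stood at a WT level of 8137 or more, and 0 were called by DESeq2, with 0 higher and 1 lower at an unadjusted p under 0.05. Some markers of other cell types were also called, where 5.34% of all genes tested were higher and 1.25% lower. Of 8 primitive endoderm markers 6 were higher, with a summed level of 6762 normalized counts in Dot1l KO cells and 3408 in WT cells. Most of both sums came from Col4a1, at 2351 in Dot1l KO and 349.5 in WT, and Lama1, at 3597 and 2871. Lama1 and Gata4 were not called. The smallest p-values were those of Dab2, at 2.75 ± 0.43, and Col4a1, at 2.75 ± 0.52, by the authors' deposited table, and Gata6, Sox17, Sox7 and Pdgfra also passed. Of 5 fibroblast markers 4 were higher, with 2196 in Dot1l KO cells and 994.9 in WT cells, and of 9 trophoblast markers 2 were higher, with 4500 in Dot1l KO cells and 4062 in WT cells. The fibroblast collagens Col1a2, at 4.03 ± 0.76, Col1a1 and Col3a1 passed by the authors' deposited table, as did Thy1, Elf5 and Krt8. Of 8 primordial germ cell markers 2 were higher and 2 lower, with 7478 in Dot1l KO cells and 7063 in WT cells. The germ cell RNA regulators Dazl, at 3.23 ± 0.40, and Ddx4, at 1.60 ± 0.37, rose by the authors' deposited table, while Dppa3, at -2.17 ± 0.38, and Nanos3, at -2.53 ± 0.75, fell. Of 6 Sertoli markers 0 were called by DESeq2, with 2 higher and 0 lower at an unadjusted p under 0.05, and sums of 1687 in Dot1l KO cells and 982.9 in WT cells. The fibroblast markers Postn, Dcn and Lum, Foxa2 of endoderm and Fshr of Sertoli cells were not analysed here. Among the markers analysed only Elf5 had no reads in WT cells. Elf5, Col1a2, Col3a1 and Sox17 had WT levels under the lowest mean in the table. They could be listed only through their level in Dot1l KO, so the counts of called markers follow in part from that. The part of these cell types in the Rhox and Mage results was not tested, and in bulk RNA more cells of a type and more RNA per cell cannot be told apart.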

How the data were processed

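HISAT2 2.1.0, featureCounts 2.0.0, DESeq2 (no version given) and the mm10 build are named in the submitters' processing notes, without their settings. The deposited mean signal has the name that DESeq2 gives to the average of counts divided by size factors, per the file headers. The deposited log2 fold change, its standard error, the test score and the p-values are the authors', per the file headers. The score equals fold change over SE, and Benjamini-Hochberg adjustment of the p-values gave the deposited adjusted p. Filters, strand and the treatment of multi-mapping reads are not stated, and 7 genes have no p. Without values per sample no fit of the samples could be made, so all calls are the authors' at an adjusted p under 0.05, and each p-value covers only how these samples varied, which may be technical.

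The level of each genotype was implied from mean and fold change under equal group sizes. Implied levels under 0.25 were taken as no reads, since the table has none between 0.187 and 0.363. Intervals of 95% use 1.96 SE. Shared sequence was measured as exact stretches of 50 bases and with blastn 2.17.0 on GENCODE M21 transcripts, and tables were handled in Python 3.11.15 with pandas 2.3.3. Alternatives were centring, filters and thresholds, and these were tested on simulated data.

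The families that define the members and the gene lists were chosen with earlier results of these data known, so their counts are descriptions. The rule names every member called, the 2 smallest p and the highest mean of each family, and the 2 smallest p and the called genes of each list. Other genes named were chosen after their values were seen.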

Additional observations from a re-analysis of the deposited data

How the results depend on the processing

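Of the 19 members called higher, 17 were still higher at an adjusted p under 0.01, 17 with fold changes centred within 20 bins of mean count, and 19 when centred on the table median or with an absolute log2 fold change of at least 1. Bonferroni adjustment left 11 members higher and 0 lower, with 1 of the Mage genes. At a mean count of at least 50, which removes 18 of the 37 genes, 7 members, 3 Rhox genes and 1 Mage gene were higher. Leaving out the 11 members with a transcript at least 90% identical to that of another gene, a choice made after seeing the data, gave 11 higher of 26. The count lower, 1 with Rhox5, was 0 at an adjusted p under 0.01. Centring within bins moved log2 fold changes across 0 for Maged1 (0.051), Maged2 (0.039) and Pnmal1 (-0.10), none of which was called. Medians of the 20 bins ran from -0.22 to 0.64, with the highest in the bin of lowest means.

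No paired analysis was possible because the tables hold no values per sample, and leaving out each replicate was not run for the same reason. Leaving out copies by protein identity was not run, as no protein sequences were used here. Members near the lowest mean of 4.79 rest on few reads.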

Other observations

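The nearest gene outside the families was looked up for each X-linked member, a choice made after the values were seen. The 19 members that rose have 12 different nearest neighbours, of which 5 were higher and 0 lower, where 12.5% of the X-linked genes outside the families were higher, or 19.6% of those with a mean under 100. Of the 5, all but Xlr4a had WT levels under the lowest mean in the table and could be listed only through their level in Dot1l KO, so nothing is read from the count. Gm9, a predicted gene 2.76 kb from Rhox1, stood at 130.7 normalized counts in Dot1l KO cells and 1.37 in WT cells, with a log2 fold change of 6.57 ± 0.91 and adjusted p = 2.25e-10 by the authors' deposited table. Xlr4a, of the multicopy lymphocyte-regulated cluster, lies 6.15 kb from Pnma3 and had 318.8 normalized counts in Dot1l KO cells and 11.6 in WT cells, with adjusted p = 1.67e-16 by the authors' deposited table. Prame, a relative of a human tumour antigen 14.2 kb from Nxf7, had 35.5 normalized counts in Dot1l KO cells and 0.661 in WT cells. Gm41, the neighbour of Mageb4, and Lancl3, the neighbour of Fthl17f, had 25.4 and 11.7 normalized counts in Dot1l KO cells and 0.366 and 0.364 in WT cells. The neighbours of Nxf3 and Pnma5 were not called. For Bex2, 3.86 kb from Nxf3, the authors' deposited table gives -0.20 ± 0.37 with adjusted p = 0.875, and for Zfp185, 2.44 kb from Pnma5, it gives 0.32 ± 0.43 with adjusted p = 0.805.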
